A study of Mus musculus with 24 samples.

Results

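XY gonadal progenitor cells at E10.5 and the Sertoli cells they give rise to at E13.5 were compared for trimethylation of histone H3 at lysine 4 (H3K4me3), using the deposited peak list of each population. Peaks that overlapped within a list were joined into regions, and chromosomes 1 to 19 were kept, which left 36828 regions at E10.5 (XY progenitor) and 38056 at E13.5 (Sertoli). These 74884 regions are part of 207961 in the 8 lists of the series. A region was called kept if at least 1 bp of it was covered in the other population, lost if it was listed in XY progenitor cells only, and gained if it was listed in Sertoli cells only. Regions within 2 kb of an annotated transcription start site (TSS) were called promoter regions and all others distal regions.

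The series profiled H3K4me3, H3K27me3 and total H3 by native ChIP-seq in XY and XX supporting cells of the mouse gonad, before and after sex determination, in order to follow how chromatin changes as the bipotential progenitor takes the testis or the ovary fate. XY progenitor cells were sorted by FACS from pooled E10.5 gonads of SF1-eGFP embryos, and Sertoli cells from pooled E13.5 XY gonads of Sox9-CFP embryos, all on a mixed C57BL/6 x CD1 background. Each population was sampled in 2 biological replicates of few cells, with Drosophila S2 chromatin as carrier, and each deposited list pools both replicates. The reporters define the sort: SF1 (the product of Nr5a1) marks somatic cells of the early gonad and of the adrenal lineage, and Sox9 is the gene that sets the Sertoli fate, so marks at these genes are not independent of how cells were chosen. XX progenitor cells (E10.5, SF1-eGFP) and pregranulosa cells (E13.5, TESM-CFP, labelled as granulosa cells), sorted from female embryos on the same background, served as lists that had no part in the calls.

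H3K4me3 sits on nucleosomes around the start sites of active genes and of genes held ready for activation. It is deposited by the Trithorax group complexes, and at many developmental genes it is found together with H3K27me3, the Polycomb mark of repression. Broad stretches of H3K4me3 are a known feature of genes that define a cell's identity, and narrow H3K4me3 signals away from start sites are often found at regulatory elements.

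The lists give presence and width only, since every peak carries the same score, and with 1 pooled list per population no test between populations was possible. Intervals given below are exact 95% binomial (Clopper-Pearson) intervals, and they cover counting error only. The XY progenitor list rests on 10162534 tags and the Sertoli list on 31104760, with a Poisson tag threshold of 6 and 12, respectively. This difference in depth moves in the same direction as time, so depth and stage cannot be told apart for a weak region. The XX progenitor list, at 49254553 tags, is deeper than both. The depth of the pregranulosa list is unknown.

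Most of the promoters that carried H3K4me3 at E10.5 still carried it in Sertoli cells, whereas most distal regions, when narrow ones are counted, were listed at only 1 of the stages. Of 14256 promoter regions in XY progenitor cells, 1070 were lost, which is 7.51% (7.08 to 7.95), and 13186 were kept. Of 14366 promoter regions in Sertoli cells, 1334 were gained, which is 9.29% (8.82 to 9.77). Away from promoters, 13868 of 22572 regions in XY progenitor cells were lost, which is 61.4% (60.8 to 62.1), and 15271 of 23690 regions in Sertoli cells were gained, which is 64.5% (63.8 to 65.1). Among distal regions wider than a single calling window (1001 bp), most of those in XY progenitor cells were kept (4944, against 1784 lost), while in Sertoli cells 6492 were gained and 6294 kept. By chromosome, the lost share of distal regions lay between 55.9% on chromosome 11 and 65.3% on chromosome 1. In bases, 39.6 Mb were shared, which is 65.1% of the H3K4me3 in XY progenitor cells and 54.0% of that in Sertoli cells.

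**Figure D1:**
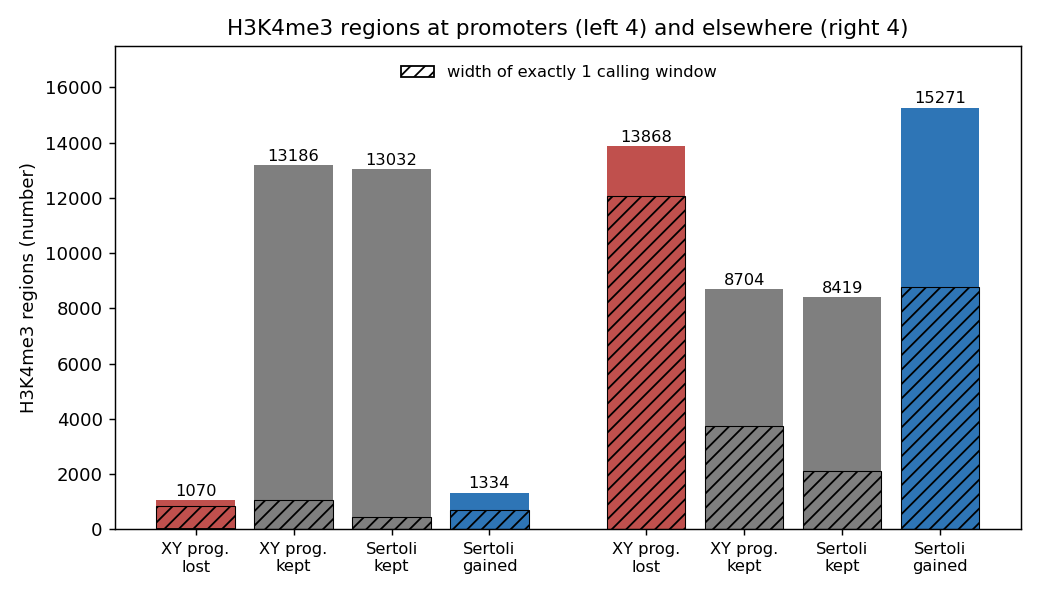
Number of H3K4me3 regions (y axis) by class, for promoter regions (left 4 bars) and distal regions (right 4 bars) of XY progenitor and Sertoli cells; the hatched part of a bar counts regions of exactly 1001 bp, the width of a single calling window. Kept promoter regions (13186 and 13032) far outnumber lost and gained ones, while among distal regions the lost (13868) and gained (15271) exceed the kept, and 12082 of the lost distal regions are 1001 bp wide.

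The distal regions that were lost or gained were narrow. Of the lost distal regions, 87.1% were 1001 bp wide, a single calling window, against 43.2% of the kept distal regions in the same cells. Of the gained distal regions, 57.5% had that width, and their upper quartile was 1335 bp. When both lists were limited to regions over 1001 bp, a choice made after the data were seen, 2411 distal regions of XY progenitor cells were lost and 4317 kept, the opposite of the order over all regions, and 8566 of Sertoli cells were gained. Kept promoter regions were wider, with a median of 2153 bp at E10.5 and 2568 bp at E13.5. Most lost and gained distal regions were not extensions of a region in the other list: 22.1% of the lost and 23.6% of the gained lay within 5 kb of one.

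Gained distal regions lay more often inside genes than lost ones. The centre of 51.7% of the gained fell in an intron, against 45.2% of the lost, and 44.2% and 51.6%, respectively, were intergenic. Their median distance to a protein-coding TSS was 35913 bp for the gained and 55692 bp for the lost, against 27551 bp for kept distal regions. A start of another annotated transcript lay within 2 kb of 5.99% of gained, 4.40% of lost and 17.1% of kept distal regions, so few of the stage-restricted regions were unlabelled promoters of the annotation used here. All were poor in CpG. The median ratio of observed to expected CpG was 0.237 for gained distal, 0.207 for lost distal and 0.369 for kept distal regions, and 0.588 for kept promoter regions. Over regions wider than 1001 bp alone the order of gained (0.252) and lost (0.255) was the opposite.

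The central 1000 bp of each region was searched for short motifs, and gained regions held the motif of NR5A1 more often than lost ones. The motif of NR5A1 (SF1), the nuclear receptor that the somatic gonad and adrenal gland need to form, was searched as CAAGGTCA on both strands. It was present in 2945 of 15271 gained distal regions, which is 19.3% (18.7 to 19.9), in 1031 of 13868 lost distal regions, which is 7.43%, and in 8.27% (7.70 to 8.87) of kept ones. Over all distal regions of both lists the share was 11.8%. Gained promoter regions showed the same difference, with 16.9% (15.0 to 19.1) against 5.23% (3.98 to 6.74) of lost and 5.11% of kept promoter regions, and 5.39% of 1000 bp windows around every protein-coding TSS held the motif. A match is a description of the sequence and not evidence of binding.

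The sequences that follow show where this motif lies at genes of the Sertoli pathway. Each is 120 bases around the match nearest to the centre of a gained distal region at a gene of the Sertoli list. The distance in each label runs from the TSS to the nearest edge of that gained region, so the sequence itself lies further away. All are mm9 (NCBIM37), printed 5′ to 3′ on the forward strand. Capitals mark CAAGGTCA or its reverse complement and, in the Sox9 sequence at 10.1 kb, also the SOX motif CCATTGTT.
Sox9, 10.1 kb from the TSS, chr11:112632017-112632136: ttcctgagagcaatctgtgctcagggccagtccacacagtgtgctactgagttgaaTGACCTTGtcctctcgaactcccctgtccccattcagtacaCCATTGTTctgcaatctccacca
Sox9, 214 kb from the TSS, chr11:112857923-112858042: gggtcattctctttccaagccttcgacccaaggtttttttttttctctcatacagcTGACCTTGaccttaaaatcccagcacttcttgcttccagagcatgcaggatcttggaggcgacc
Adamts16, 5.53 kb from the TSS, chr13:70986728-70986847: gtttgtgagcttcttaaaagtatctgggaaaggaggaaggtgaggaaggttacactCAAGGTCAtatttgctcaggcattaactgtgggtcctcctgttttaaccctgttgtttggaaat
Fgf9, 42.2 kb from the TSS, chr14:58732078-58732197: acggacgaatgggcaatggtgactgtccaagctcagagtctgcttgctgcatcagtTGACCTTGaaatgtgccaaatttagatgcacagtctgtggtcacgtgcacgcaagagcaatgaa
Inhbb, 35.2 kb from the TSS, chr1:121282991-121283110: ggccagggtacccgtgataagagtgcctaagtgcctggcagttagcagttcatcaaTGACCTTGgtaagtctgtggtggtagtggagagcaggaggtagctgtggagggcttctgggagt
Clu, 2.13 kb from the TSS, chr14:66584541-66584660: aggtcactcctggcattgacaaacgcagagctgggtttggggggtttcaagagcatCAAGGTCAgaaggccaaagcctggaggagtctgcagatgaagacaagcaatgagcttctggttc

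The Sox9 sequence labelled 10.1 kb belongs to a gained region of 3487 bp that spanned -13561 to -10075 bp relative to the Sox9 TSS and lay in an intron of the overlapping gene BC006965. The testis enhancer of Sox9, which SOX9 and SF1 are known to bind, has been mapped to this stretch upstream of the gene. The same region was listed in pregranulosa cells and not in XX progenitor cells. Sertoli cells were sorted by a transgenic Sox9-CFP reporter, and pregranulosa cells by a CFP reporter that the study calls TESCO-mutant. Reads from a reporter transgene that carries this enhancer would map to the same region. Whether such reads contribute to it was not tested. The Adamts16 and Clu regions were in neither XX list.

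The matches were concentrated at the middle of the gained regions. In the 100 bp just before and just after the centre of gained distal regions there were 29.3 and 29.6 matches per 1000 regions, against 8.45 and 7.33 at 1450 bp on either side. In lost distal regions the same windows held 7.21 and 8.22 matches per 1000 regions at the centre and 7.21 and 5.34 at 1450 bp. The difference between classes was present at each level of GC content, with distal regions split into 5 equal bins: from the lowest to the highest bin, the gained share was 18.4%, 20.3%, 19.1%, 20.6% and 17.4%, and the lost share 6.38%, 8.40%, 7.44%, 7.70% and 8.19%. It was present among regions of a single calling window (18.4% of gained, 7.45% of lost) and among wider ones (20.5% and 7.34%).

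**Figure D2:**
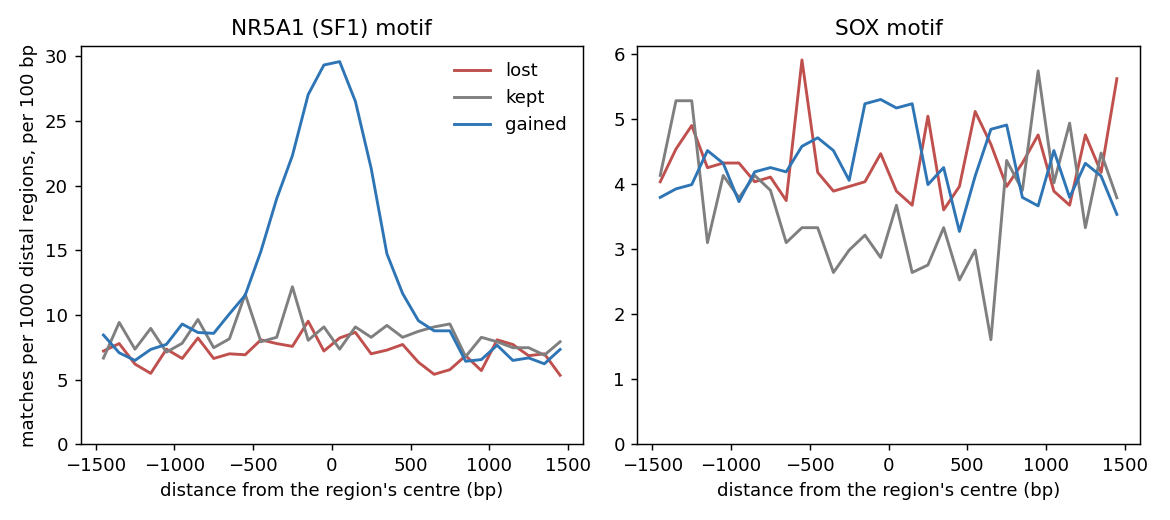
Matches of the NR5A1 (SF1) motif (left) and the SOX motif (right) per 1000 distal regions in bins of 100 bp (y axis), against distance from the region's centre in bp (x axis), for lost, kept and gained regions. The NR5A1 line of gained regions peaks at 29.6 at the centre and returns to 7.33 at 1450 bp, whereas lost regions hold 8.22 and kept regions 7.35 in the same bin, and the SOX line of gained regions reaches 5.30 near the centre.

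The NR5A1 motif was most frequent in the gained distal regions that were shared with pregranulosa cells alone. Among gained distal regions, 25.4% (24.1 to 26.8) of the 4057 that were listed in pregranulosa and not in XX progenitor cells held it, against 18.1% (17.2 to 19.1) of the 6921 in neither XX list and 15.3% (14.2 to 16.4) of the 4293 in the XX progenitor list, a group that includes regions listed in both XX populations. Among gained promoter regions, the share was 20.8% (16.4 to 25.8) of those in the pregranulosa list only. It was 20.4% (16.8 to 24.4) of those in neither XX list, an interval that overlaps the former. Of those in the XX progenitor list, 11.99% (9.43 to 15.0) held the motif. The share among gained distal regions nearest to Sertoli-specific genes (18.8%) and to pregranulosa-specific genes (19.9%) was close to that of all gained distal regions, and near the 36 genes of the Sertoli cell list it was 12.9%, or 13 regions. The SF1 reporter sorted the E10.5 population only. Repeat elements were not masked in this search.

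Other motifs differed less between gained and lost distal regions. The GATA motif (AGATAAG), bound by GATA4 in the somatic gonad, was present in 19.2% (18.6 to 19.9) of gained, 15.5% (14.9 to 16.1) of lost and 12.8% of kept distal regions. The DMRT motif (ACATTGTA), of the family of the testis factor DMRT1, was present in 4.59% (4.26 to 4.93) of gained and 3.60% (3.29 to 3.92) of lost distal regions, and in 6.29% (5.72 to 6.88) of the gained that were in neither XX list. The SOX motif was present in 4.38% (4.06 to 4.72) of gained and 3.97% (3.65 to 4.31) of lost distal regions, intervals that overlap. The share was 5.22% (4.70 to 5.77) among the gained in neither XX list. The TCF/LEF motif (CTTTGAT), read by the effectors of canonical Wnt signalling, and the homeobox motif (TAATTA) were the reverse: they were present in 17.4% and 24.7% of lost and in 15.4% and 22.6% of gained distal regions. FOX (TGTTTAC) was in 14.6% of gained (14.1 to 15.2) and 14.4% of lost (13.8 to 15.0) distal regions, intervals that overlap. Of the other motifs searched, TEAD (CATTCCA) was in 18.0% of gained and 16.9% of lost distal regions, AP-1 (TGANTCA) in 4136 of 15271 and 3608 of 13868, RUNX (TGTGGTT) in 20.5% and 19.4%, the E-box (CACGTG) in 2066 and 1713, ETS (CCGGAAGT) in 1.44% and 0.887%, and SP/KLF (GGGGCGGGG) in 4.47% and 3.84%.

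The XX lists, made from female embryos, were compared with these regions by stage. Of the lost distal regions, 31.7% (31.0 to 32.5) were listed in XX progenitor cells and 16.7% (16.0 to 17.3) in pregranulosa cells. Of the gained distal regions, 28.1% (27.4 to 28.8) were listed in XX progenitor cells and 48.6% (47.8 to 49.4) in pregranulosa cells. Lost regions were thus found more often in the other E10.5 list and gained regions more often in the other E13.5 list. Promoter regions had the same order, with 48.6% and 34.8% of the lost and 42.5% and 59.5% of the gained in XX progenitor and pregranulosa cells, respectively. Of kept regions, 99.5% at promoters and 92.4% elsewhere were in the XX progenitor list. The XX lists cover 3.52% and 3.53% of the autosomes, and the depth behind the pregranulosa list is unknown.

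**Figure D3:**
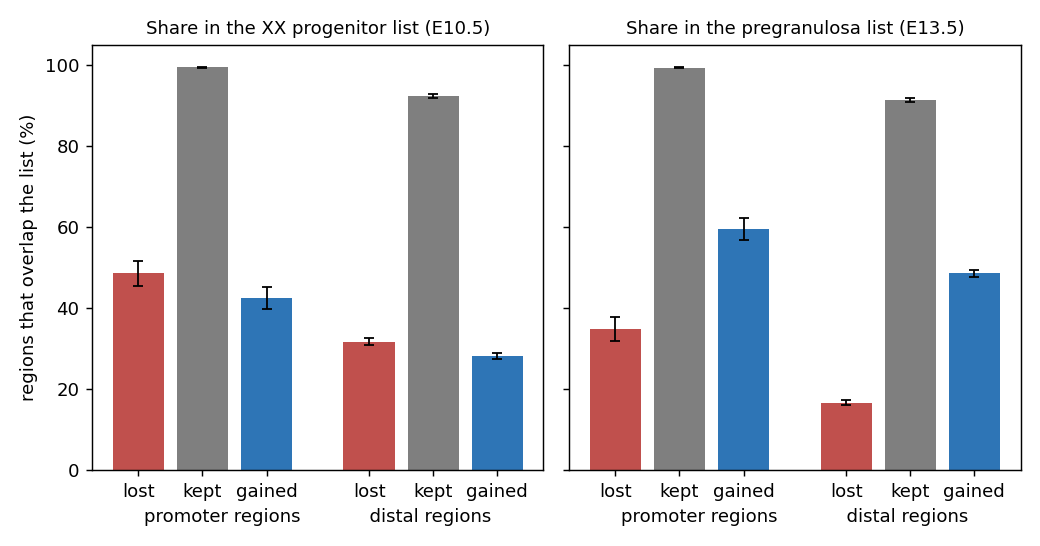
Percent of lost, kept and gained regions (y axis, with exact 95% intervals) that overlap the XX progenitor list (left) or the pregranulosa list (right), for promoter and distal regions called at E10.5 (lost, kept) or E13.5 (gained). Kept regions lie between 91.4% and 99.5%, lost distal regions stand at 31.7% and 16.7% in the respective lists, and gained distal regions at 28.1% and 48.6%.

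Width went with presence in the XX lists. Of lost distal regions of 1001 bp, 26.3% were in the XX progenitor list, against 68.3% of the 1784 wider ones and 90.6% of the 181 that reached 2000 bp. Of gained distal regions, 40.3% of those of 1001 bp were in the pregranulosa list, against 59.7% of wider ones and 74.4% of the 1036 that reached 2000 bp. In neither XX list were 8883 lost and 6921 gained distal regions, 64.1% and 45.3% of their class.

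By gene, 600 of 21418 protein-coding promoters were gained (marked within 2 kb of the TSS in Sertoli cells only), which is 2.8%, and 449 were lost, which is 2.1%. The mark was kept at 13432 and listed in neither population at 6937. A promoter can be lost where the region that covered it is kept, since a wide region may overlap a Sertoli region further away. Of the gained promoters, 410 (68.3%, 64.4 to 72.0) were also marked in pregranulosa cells, 310 (51.7%, 47.6 to 55.7) in XX progenitor cells and 148 (24.7%, 21.3 to 28.3) in neither XX list. Of the lost promoters, 266 (59.2%, 54.5 to 63.8) were marked in XX progenitor cells and 207 (46.1%, 41.4 to 50.8) in pregranulosa cells.

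Several Sertoli cell genes had H3K4me3 at the promoter in Sertoli cells only. None had it in XY progenitor cells only (0 to 9.74%), an interval that holds the 2.1% of all protein-coding promoters. Of the 36 genes of this list, 8 were gained, which is 22.2% (10.1 to 39.2) beside 2.8% of all protein-coding promoters, 25 were kept and 3 (Cyp26b1, Fshr and Nedd9) had no region in either list. The members of this list, and of the lists of other pathways and cells below, were chosen with earlier results of these data known. Their shares are therefore descriptions and no independent support. The widest was at Sox10, a SOXE transcription factor gene: in Sertoli cells a region of 9222 bp (chr15:78992239-79001460) spanned -6540 to 2681 bp relative to the TSS, and there was none within 20 kb in XY progenitor cells. Its promoter was covered over 2073 bp of region in XX progenitor and 1252 bp in pregranulosa cells. Shbg, which encodes the androgen carrier that Sertoli cells produce, had 7633 bp in Sertoli and none in XY progenitor cells. Of the 7633 bp, 4406 bp belong to a region upstream of the TSS (chr11:69433333-69437738) that only reached the edge of the window. The Shbg window was covered over 3293 bp in Sertoli and 2688 bp in pregranulosa cells. Hsd17b1 and Hsd17b3, enzymes of sex steroid synthesis, had 5839 and 3135 bp in Sertoli cells. Ptgds, the prostaglandin D synthase that acts in Sertoli cell recruitment, had 3648 bp. Mro, a gene of the male gonad, had 5754 bp and Defb19, a defensin gene transcribed in fetal Sertoli cells, 4151 bp. The last of the 8, Sostdc1, a BMP and Wnt antagonist gene, had a single region of 1001 bp. Ptgds and Hsd17b3 had no H3K4me3 in either XX list, while Shbg and Mro had 2688 and 2480 bp in pregranulosa cells.

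Outside that list, Aldh1a1, a retinaldehyde dehydrogenase that makes retinoic acid, had the widest gained region after Sox10, with 8353 bp in Sertoli cells, 1650 bp in XX progenitor cells and 6950 bp in pregranulosa cells. BC034090 had 6742 bp over the whole window. At Purb, Steap3, Car5a and Sept7 the gained region only reached the edge of the window, with 974, 273, 201 and 717 of its 4001 bases covered, and a further annotated entry of Purb was kept. Gm10106, Gm10716 and Gm17535, predicted genes next to each other at the start of chromosome 9, shared a region of 6672 bp (chr9:3032014-3038685). That end of the chromosome is known for satellite repeats, and the placement of reads there is uncertain.

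The widest regions over lost promoters lay at Hox genes. Hoxb4 lay at the border of 2 regions in XY progenitor cells with a summed width of 34191 bp, and no Sertoli region reached its window. Hoxb8 (9984 bp) and Hoxb3 (8211 bp), likewise transcription factor genes of anterior to posterior patterning, were lost. Igf2, the fetal growth factor, had a region of 8734 bp in XY progenitor cells that covered 474 bp of its window, and none in Sertoli cells. Pth1r (5288 bp), the receptor of parathyroid hormone and its related peptide, and Isg15 (7008 bp in all, the widest region 4554 bp), an interferon-induced ubiquitin-like protein, followed. Lrp3, Crispld2, Cntn2, Lrrc4b, Cnfn and Gm10735 lost regions of 3598 to 2729 bp. Of these 12 genes, only Gm10735 had no H3K4me3 in XX progenitor cells, and its region covered 164 bp of the window.

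**Figure D4:**
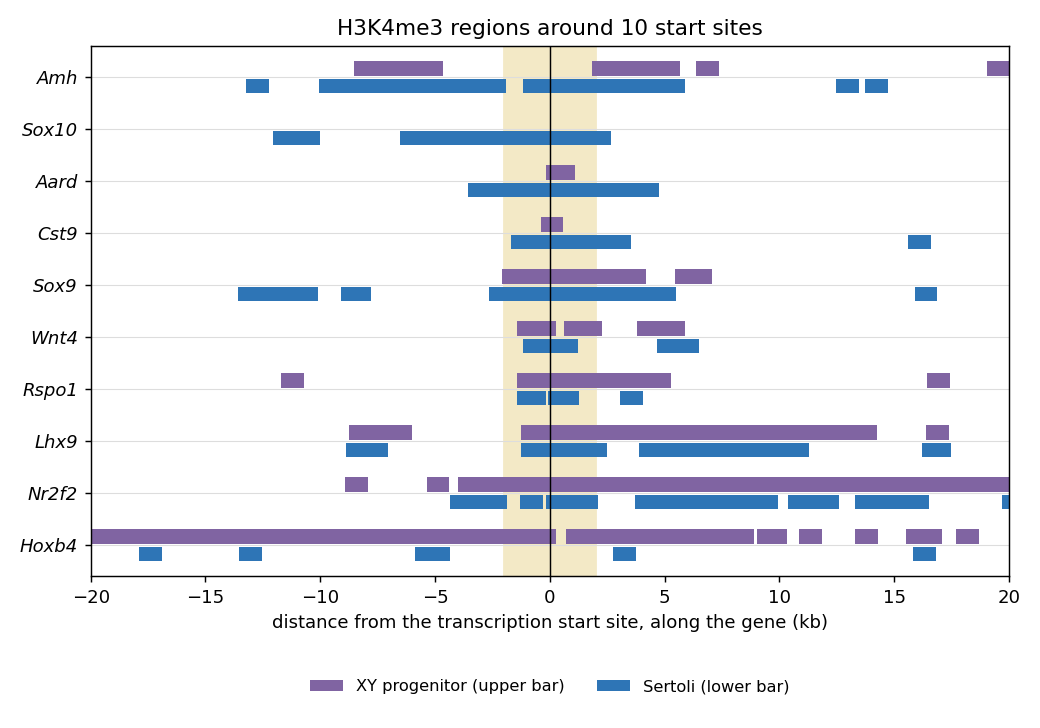
H3K4me3 regions of XY progenitor cells (upper bar of each row) and Sertoli cells (lower bar) within 20 kb of 10 start sites, by distance from the TSS along the gene in kb (x axis); the shaded band is the window of 2 kb on either side. Sertoli regions appear or spread at Amh, Sox10, Aard and Cst9, whereas the wide E10.5 regions of Rspo1, Lhx9, Nr2f2 and Hoxb4 are shorter, broken up or absent in Sertoli cells.

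Where the promoter was marked at both stages, the mark was in general wider in Sertoli cells. The summed width of the regions over a kept promoter differed by a median of 351 bp (335 to 367, from binomial order statistics) and was larger in Sertoli cells at 9422 of 13432 (70.1%). In all, 783 promoters (5.83%) were at least 2-fold wider in Sertoli cells and 138 (1.03%) at least 2-fold narrower. The Sertoli list is the deeper of the pair, so a general difference in width and the difference in depth cannot be told apart. The XX pair cannot separate stage from depth either, since the depth of the pregranulosa list is unknown. Of the promoters at least 2-fold wider in Sertoli cells, 772 were marked in both XX lists. Of these, 486 (63.0%, 59.4 to 66.4) were wider in pregranulosa than in XX progenitor cells, against 47.0% (46.1 to 47.9) of the promoters that changed less than 2-fold. Of the narrower promoters, 18.4% (12.3 to 25.9) were wider in pregranulosa cells, with medians of 5655 bp in XX progenitor and 3162.5 bp in pregranulosa cells.

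Sertoli cell genes were wider in Sertoli cells by more than promoters in general. Of the 25 kept, 23 were wider in Sertoli cells and 13 (52.0%, 31.3 to 72.2) at least 2-fold, beside 5.83% of all kept promoters, and their median difference was 2678 bp. Since the members were chosen with earlier results of these data known, this difference in shares is no independent support. Amh, the anti-Müllerian hormone that Sertoli cells secrete, had the largest increase of all protein-coding genes, from 3817 to 15207 bp. At Amh the E10.5 regions spanned the starts of its neighbours Sf3a2 and Plekhj1 upstream and began 1851 bp downstream of its TSS, covering 150 bp of the window, while in Sertoli cells a region of 7065 bp spanned -1187 to 5877 bp and covered the start itself. The other 8142 bp of the Sertoli sum belong to the region over Sf3a2 and Plekhj1, which ended -1895 bp from the Amh TSS and so reached its window. The E10.5 region over these neighbours, of 3885 bp, ended -4655 bp from the TSS and is not in the E10.5 sum. The same promoter had 4540 bp in XX progenitor and 4847 bp in pregranulosa cells.

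Aard, a testis gene of unknown function expressed in Sertoli cells, widened from 1265 to 8310 bp, and had 1253 and 1830 bp in XX progenitor and pregranulosa cells. Cst9, a cystatin gene transcribed in fetal Sertoli cells, widened from 1001 to 5236 bp and had none in either XX list. Cbln4 (2734 to 8040 bp), Dmrt1 (1274 to 3630 bp), which maintains the Sertoli fate, and Inhbb (5145 to 10752 bp), the inhibin beta B subunit, all widened at least 2-fold. Gatm, Clu, Cldn11 (a tight junction protein of the Sertoli barrier), Vnn1, Wnt6, Col9a3 and Adamts16 were the other members past 2-fold. Dmrt1 had 3109 and 3148 bp in XX progenitor and pregranulosa cells. Clu, Cldn11, Wnt6 and Adamts16 were wider in pregranulosa than in Sertoli cells, at 4746, 4570, 16134 and 10123 bp. Cbln4, Inhbb, Gatm and Vnn1 were narrower there, at 2387, 6716, 3663 and 3677 bp, and Col9a3 had none. Of the genes that act high in the pathway, Sox9 and Fgf9 were already wide at E10.5. Sox9 had 6300 bp in XY progenitor and 8157 bp in Sertoli cells, and Fgf9, its feedback partner, had 7878 and 7549 bp. The E10.5 widths were at the 98.3 and 99.3 percentile of all marked promoters in XY progenitor cells. Gdnf and Pdgfa, further members of the list, had like widths in XY progenitor cells (7158 and 6231 bp), so early width was not particular to Sox9 and Fgf9.

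Among genes that gained the most width outside the list were Irs2, an adaptor of insulin signalling (3781 to 13055 bp), Serinc3 and 0610039K10Rik, which share a region (2171 to 10986 bp), Islr2 and 1600029O15Rik, which share another (3379 to 12172 bp), BC021891 (3700 to 12477 bp), Vdac3 (6021 to 13662 bp), 2610002D18Rik (1571 to 10060 bp) and Fam82a1 (2008 to 9614 bp). Serinc3, Vdac3 and Fam82a1 were also wide in pregranulosa cells, at 11472, 13504 and 9974 bp. Irs2 and Islr2 were wide in XX progenitor cells (11542 and 10149 bp) and not in pregranulosa cells (5723 and 3496 bp), the opposite order to the XY pair. Whether these differences between the pairs exceed the spread between replicates was not tested.

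**Figure D5:**
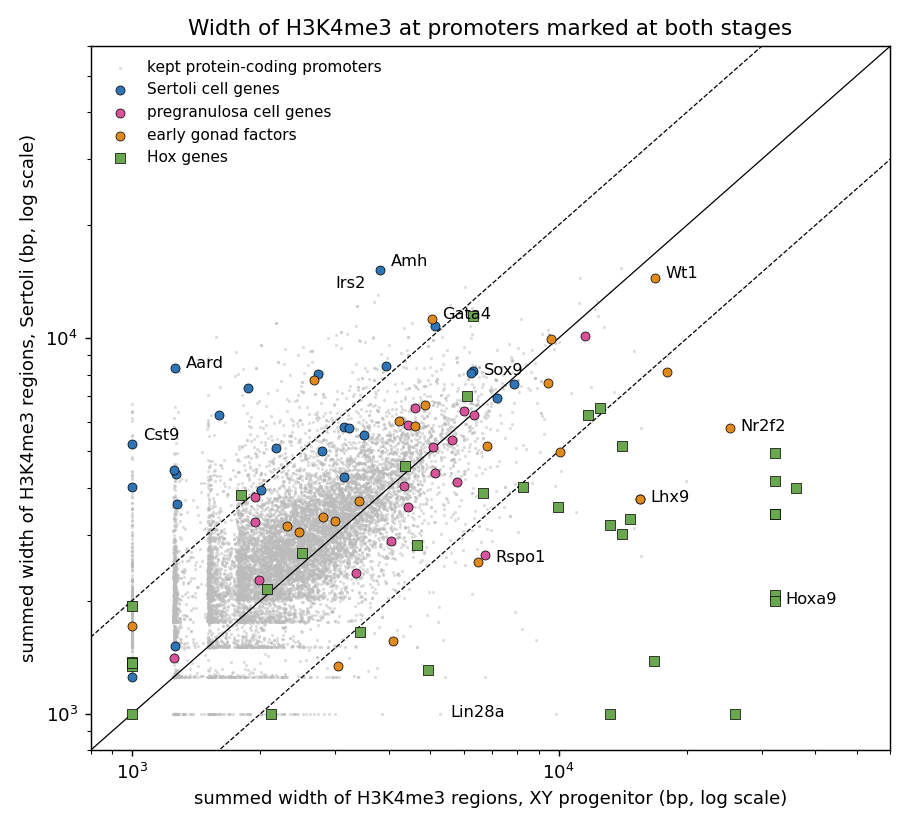
Summed width of H3K4me3 regions over each kept protein-coding promoter in XY progenitor cells (x axis) and Sertoli cells (y axis), in bp on log scales; the solid line marks equal width, the dashed lines 2-fold differences, and coloured points members of named gene groups. Of the Sertoli cell genes 23 of 25 lie above the line (Amh at 3817 and 15207 bp), and of the Hox genes 23 of 34 lie below it, as do Nr2f2, Lhx9 and Rspo1.

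Genes defined as Sertoli-specific by expression were wider in Sertoli cells more often than other genes. The study's supplement names 1408 genes as Sertoli-specific and 1164 as pregranulosa-specific, from transcription profiles of an earlier study, of which 1339 and 1104 were matched on the autosomes. Of the Sertoli-specific genes, 45 were gained (3.36%, 2.46 to 4.47) and 4 lost (0.299%, 0.0815 to 0.763), beside 2.81% and 2.27% of the other 19016 protein-coding promoters. Of those kept, 17.3% (15.3 to 19.6) were at least 2-fold wider, against 4.66% (4.27 to 5.06) of the other protein-coding genes and 4.85% (3.61 to 6.36) of the pregranulosa-specific genes. Pregranulosa-specific genes were narrower at least 2-fold in 1.78% (1.06 to 2.80), against 1.06% of the others, and 15 of 1104 were lost, which is 1.36% (0.762 to 2.23).

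None of the 20 pregranulosa cell genes was lost or gained (0 to 16.8% for each). That interval holds the 2.1% lost and 2.8% gained of all protein-coding promoters. Of the 20 genes 19 were kept, and Runx1 had no region within 2 kb of the start used here. Of those kept, 11 were narrower in Sertoli cells and 8 wider, with a median difference of -254 bp beside 351 bp over all kept promoters. Their median width at E10.5 was 4610 bp, beside 2332 bp. Rspo1, the secreted Wnt activator of the ovarian pathway, went from 6715 to 2644 bp, and had 7713 and 7405 bp in the XX lists. Wnt4, the Wnt ligand of the ovarian pathway, had 3351 and 2374 bp, and 9098 bp in pregranulosa cells; within 1 kb of its TSS the covered bases were 358 bp higher in Sertoli cells. Lhx9, a LIM homeobox gene of the early gonad, went from 15508 to 3735 bp and had 15164 and 19767 bp in the XX lists. Foxl2, the forkhead gene of the granulosa fate, had 1943 bp in XY progenitor and 3236 bp in Sertoli cells, against 6315 and 14012 bp in XX progenitor and pregranulosa cells. Lef1, a transcription factor of the Wnt pathway, had 4433 and 3553 bp, and Kitl, the Kit ligand, 4610 and 6531 bp.

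Most genes of the Wnt pathway were narrower in Sertoli cells. Of 23 genes, 22 were kept, and 16 of the 22 were narrower in Sertoli cells, beside 3841 of 13432 among all kept promoters. Their median difference was -829.5 bp, and their median width at E10.5 was 4397.5 bp, beside 351 and 2332 bp over all kept promoters. Besides Rspo1, Wnt2b (5068 to 2109 bp) and Sfrp1 (5714 to 2543 bp), a secreted Wnt antagonist, were at least 2-fold narrower, and Sfrp2, of the same antagonist family, had 5301 and 3012 bp. Wnt6, which is also on the Sertoli list, was the only member at least 2-fold wider (3944 to 8432 bp), and it had 16134 bp in pregranulosa cells. Ctnnb1, which encodes beta-catenin, had no region within 2 kb of the start used here.

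All 22 early gonad factors were kept, and 7 of them were at least 2-fold narrower (31.8%, 13.9 to 54.9), beside 1.03% of all kept promoters. Their median width at E10.5 was 4749 bp, beside 2332 bp over all kept promoters, so the 1.03% is not a share for promoters of like width. Over the whole list, 12 of the 22 were wider in Sertoli cells and 10 narrower, with a median difference of 264.5 bp, beside 70.1% wider and 351 bp over all kept promoters. Nr2f2 (COUP-TFII), a nuclear receptor of interstitial cells, went from 25229 to 5779 bp and had 29753 and 3461 bp in XX progenitor and pregranulosa cells. Emx2, a homeobox gene of the urogenital ridge, went from 17965 to 8153 bp and had 22099 bp in pregranulosa cells. Tcf21 (10075 to 4978 bp), Osr1 (4088 to 1566 bp), Tbx18 (6460 to 2544 bp) and Upk3b (3049 to 1342 bp), which mark mesenchyme and coelomic epithelium, were the others with Lhx9. Gata4 (5046 to 11248 bp), a factor that Sertoli cells continue to need, and Numb (2675 to 7747 bp), which acts in asymmetric division, were at least 2-fold wider. In XX progenitor and pregranulosa cells Gata4 had 11174 and 12084 bp, and Numb 3385 and 7956 bp. The sums count only regions that reach the window. At Lhx9 a further Sertoli region of 7416 bp spanned 3882 to 11297 bp, and at Nr2f2 a further region of 6225 bp spanned 3717 to 9941 bp, both inside the E10.5 stretch, so part of the difference is a break of the stretch and not its absence. Wt1 was wide at both stages (16789 and 14471 bp), and Nr5a1 itself had 4877 and 6651 bp.

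Of the 12 early embryonic growth genes, Igf2 was lost (8.33%, 0.211 to 38.5, beside 2.1% of all protein-coding promoters), and 10 of the 11 kept were narrower, beside 3841 of 13432 among all kept promoters. Their median difference was -1606 bp, beside 351 bp, and their median width at E10.5 was 5902 bp, beside 2332 bp. Lin28a, which blocks the maturation of let-7 microRNA, had 5273 bp in XY progenitor and a single 1001 bp region in Sertoli cells. Dlk1 (6266 to 3082 bp), an imprinted gene, was also at least 2-fold narrower, and Igf2bp3 had 9029 and 4989 bp. H19 and Trim71, a further imprinted gene and a partner of Lin28a in stem cell timing, had 4242 and 2625 bp, and 5897 and 4291 bp. Of 19 cord and basement membrane genes 18 were kept, and Cldn11 (1258 to 4455 bp), Cgn (1742 to 7915 bp), which encodes the tight junction protein cingulin, and Col9a3 (1001 to 4014 bp) were at least 2-fold wider (16.7%, 3.58 to 41.4, an interval that holds the 5.83% of all kept promoters). Itga6, the laminin receptor subunit, was gained by 1 region of 1001 bp.

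Hox genes, a family singled out after their values were seen, made up most of the largest decreases. Of 40 Hox promoters, with Hoxa3 annotated under 2 identifiers, 34 were kept and 1 gained. The lost were 4 (10%), beside 2.1% of all protein-coding promoters. At least 2-fold narrower were 19 of the 34 kept (55.9%), beside 1.03% of all kept promoters. The median width of the kept Hox promoters at E10.5 was 9117.5 bp, beside 2332 bp over all kept promoters. A region of 32136 bp in XY progenitor cells (chr6:52151737-52183872) spanned the starts of Hoxa3, Hoxa5, Hoxa6, Hoxa7 and Hoxa9 or lay within 2 kb of them, where the Sertoli regions summed to between 2002 bp at Hoxa9 and 4945 bp at Hoxa6. Hoxb6 went from 35964 to 3981 bp and Hoxb5 from 25980 to 1001 bp. The XX pair showed the same order there, with 62290 bp at Hoxb5 and Hoxb6 in XX progenitor cells and 3821 and 5022 bp in pregranulosa cells. Neighbouring Hox promoters share regions and are not independent, so no interval is given for these shares. Mllt10, a chromatin cofactor, was the only gene of the 10 largest decreases besides Nr2f2 that is no Hox gene (19877 to 4176 bp). Of its E10.5 sum, 15634 bp belong to a region (chr2:17960066-17975699) that ended upstream of the TSS at position 17976898. That region reached the window but did not cover the start. Of the Mllt10 window, 3215 bp were covered in XY progenitor and 2288 bp in Sertoli cells.

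H3K27me3, the Polycomb mark, was measured in the same populations. Of the 600 gained promoters, 142 (23.7%, 20.3 to 27.3) overlapped H3K27me3 in XY progenitor cells, beside 4307 of the 13432 kept promoters (32.1%, 31.3 to 32.9). With regions over 1001 bp only, the share of gained promoters was 43.9%. The share of kept promoters was not computed with that limit, so the 43.9% cannot be set against the 32.1%. The mark was absent in Sertoli cells from 33 of these 142 gained and 1002 of these 4307 kept promoters. Of the 449 lost promoters, 218 (48.6%, 43.8 to 53.3) overlapped H3K27me3 in Sertoli cells, against 29.4% (28.7 to 30.2) of kept promoters, and 66 had it in Sertoli cells only. Among kept promoters, those at least 2-fold wider went from 39.8% (36.4 to 43.4) with H3K27me3 in XY progenitor cells to 22.1% (19.2 to 25.2) in Sertoli cells, and those at least 2-fold narrower from 58.0% (49.3 to 66.3) to 82.6% (75.2 to 88.5). Promoters that changed less went from 31.3% to 29.3%. The H3K27me3 list of XY progenitor cells rests on 6470151 tags and that of Sertoli cells on 44446456, so depth and stage cannot be told apart for these shares.

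Single genes showed both marks. Over the window of 4001 bases, Sox10, Sox9, Fgf9, Dmrt1, Gata4 and Wnt6 were covered by H3K27me3 in full in XY progenitor cells and not at all in Sertoli cells. Hoxb4, Hoxb3, Hoxa5, Nr2f2 and Lin28a were not covered in XY progenitor cells and covered in full in Sertoli cells. Wnt4, Rspo1, Foxl2, Lef1 and Lhx9 were covered in full at both stages. Amh, Aard, Cst9, Shbg and Ptgds had no H3K27me3 at either stage. Of distal regions, 6.88% of the gained overlapped H3K27me3 at E10.5 and 9.50% at E13.5, and 8.80% and 19.6%, respectively, of the lost.

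Gained distal regions were more frequent around Sertoli genes. Each of the 15271 gained distal regions was given to its nearest protein-coding TSS, and 2318 (15.2%) fell to Sertoli-specific genes, against 8.59% of the lost and 10.8% of the kept. Sertoli-specific genes had on average 1.73 gained and 0.889 lost distal regions each, all protein-coding genes 0.718 and 0.652. Pregranulosa-specific genes had 1.28 gained and 1.32 lost. On the Sertoli list, Sox9 had 14 gained and 9 lost distal regions, Dmrt1 8 and 0, Inhbb 7 and 1, Mro 7 and 0 and Etv5, an ETS factor of Sertoli cells, 7 and 1, whereas Cbln4 had 5 and 11. Of the pregranulosa genes, Nr2f1 had 1 gained and 17 lost and Fzd1 4 and 10, whereas Kitl had 11 gained and 1 lost.

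The widest gained distal region, of 8253 bp (chr11:67398769-67407021), lay in Gas7, a gene of cytoskeletal organisation, and the others of the 8 widest, from 7971 to 6136 bp, lay in Sema7a, Znrf2, Mylk, Etl4, St5, Tmem184a and Slmap. All 8 had their centre in an intron, 7 were in the pregranulosa list and 4 in the XX progenitor list, and the 1 in Mylk, which encodes a myosin light chain kinase, was in neither. The 4 in Gas7, Etl4, Tmem184a and Slmap lay within 2 kb of starts of other transcripts of the annotation. The widest lost distal regions were narrower, from 3885 bp in Ssbp3 to 3164 bp in Mcc, and included a region in Foxp1 (3765 bp), 1 that lay 6.64 kb from the TSS of Pax2 (3468 bp), a kidney and mesonephros factor, and 1 that lay 2.29 kb from that of Hoxb8 (3300 bp). All 8 were in the XX progenitor list and 5 of them in the pregranulosa list.

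Marker lists of other cells were read in the same way, beside 2.8% of all protein-coding promoters gained, 2.1% lost, 5.83% of the kept at least 2-fold wider and 1.03% at least 2-fold narrower. Of 15 germ cell markers, 6 were gained (40%, 16.3 to 67.7), 3 kept, 6 unmarked and none lost. The gained were Pou5f1, Sycp3 and Dppa5a (1001 bp each), Dnd1 (1513 bp), Dppa3 (1961 bp) and Nanos2, whose region of 3942 bp covered 2 bp of the window. Pou5f1, the pluripotency factor of germ cells, had no H3K4me3 in either XX list and was covered in full by H3K27me3 at both stages. Of 12 steroidogenic markers, Lhcgr (1793 bp) and Mc2r (2263 bp), receptors of Leydig and adrenal cells, were lost (16.7%, 2.09 to 48.4), Hsd3b1 (2248 bp) was gained, 5 were unmarked, and of the 4 kept Star (1001 to 2547 bp) and Fdx1 (1516 to 3975 bp), which serve the start of steroid synthesis, were at least 2-fold wider in Sertoli cells. Of 9 muscle genes, Myod1 (3003 bp) and Actc1 (1001 bp) were lost (22.2%, 2.81 to 60.01) and none gained. Endothelial markers had 6 kept and 7 unmarked of 13, with Esam (2477 to 5308 bp) at least 2-fold wider and Erg (3714 to 1253 bp) narrower, and blood markers 2 kept, 7 unmarked and 1 gained (Csf1r, 1001 bp) of 10 (10%, 0.253 to 44.5). All 10 mesonephric and epithelial markers were kept, with Pax2 (6577 to 2862 bp) and Pax8 (3687 to 1637 bp) at least 2-fold narrower and Krt8, a keratin gene (1278 to 2599 bp), at least 2-fold wider, and in all 6 were narrower and 4 wider. Olig2 (1803 bp) was the only gain among 11 neuronal genes, and of the 10 kept Tubb3, a neuronal tubulin gene (1258 to 4066 bp), and Pax6 (1001 to 2106 bp) were at least 2-fold wider (20%, 2.52 to 55.6). The part of other cells in the sort in the lost and gained regions was not tested. All 13 housekeeping genes were kept, and Tbp, a general transcription factor, had 5117 and 6770 bp.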

How the data were processed

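H3K4me3 was measured by native ChIP-seq (micrococcal nuclease digestion, H3 as input) in 4 samples of this comparison, 2 XY progenitor (E10.5) and 2 Sertoli (E13.5). Per the labels and the study's methods, the authors trimmed reads (Trim Galore), aligned them with Bowtie to the mm9 genome, and then ran HOMER findPeaks, which the methods describe per replicate. The deposited lists are 1 per population and mark, and per the labels they were made from both replicates; the file headers, where present, name 1 tag directory each (histone style, size 1000 bp for H3K4me3 and 5000 bp for H3K27me3, 4-fold over input and over the local region, Poisson p of 0.0001 over input). The versions are not given in the sources used here. The deposited score column holds the same score for every peak, so presence and the start and end positions were the only values used. Per the file headers, the depth was 10162534 tags in XY progenitor and 31104760 in Sertoli cells. The precision of a share is given by its interval, and no spread between replicates can be had.

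From these lists, peaks were joined, kept to chromosomes 1 to 19 and overlapped (Python 3, NumPy and SciPy) with windows of 2 kb on either side of the 5′ end of each of 34653 genes (21418 protein-coding) of GENCODE vM1 on NCBIM37, the assembly also known as mm9. Scripts were tested on simulated intervals. Genes were named by these rules: the 12 widest gained and lost promoter regions, the 10 largest increases and decreases of summed width, the 8 widest gained and lost distal regions, the members of 14 lists that were gained or lost and up to 3 kept per list, and genes the study discusses; other members of a list were named to complete a count of that list. The members and lists were chosen with earlier results of these data known. Of the list genes, 1 was not matched. Motifs were searched in the forward genome sequence on both strands. Alternatives were a minimum overlap of 500 bp, windows of 1 kb, every annotated transcript start, the widest 75% of regions, lists of equal number, joining of peaks within 1 kb, and a motif window of 500 bp; restriction to regions over 1001 bp was added after the data were seen. H3K27me3 lists of XX cells were not used here. Some items that the rules would name are not reported here.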

Additional observations from a re-analysis of the deposited data

Results flagged for a closer look

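Chromosome Y lay outside the comparison, which was limited to chromosomes 1 to 19, and it gave a signal above the XX lists: the XY progenitor list held 30 H3K4me3 peaks there and the Sertoli list 16, against 1 in XX progenitor and 2 in pregranulosa cells.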

How the results depend on the processing

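No paired analysis was possible because each list pools both replicates of its population, and for the same reason no replicate could be left out. Over 8 alternatives, 1 of them added after the data were seen, 137 of the main values stayed within their interval, or within 1.5 times for counts, and 42 moved, among which 2 orders turned, both with regions over 1001 bp only; the cause was not tested. With an overlap of at least 500 bp, 47.7% of gained distal regions were in the pregranulosa list, and 29.1% and 14.8% of lost ones in the XX progenitor and pregranulosa lists. With windows of 1 kb, 676 promoter regions were lost and 883 gained, and 30.1% of gained promoters had H3K27me3 in XY progenitor cells; with every transcript start, 1680 were lost and 2249 gained. With the widest 75% of regions, 8527 distal regions were lost, 5779 kept and 9504 gained, 32.9% and 18.4% of the lost were in the XX progenitor and pregranulosa lists, 30.6% of gained promoters had H3K27me3 in XY progenitor cells and 55.1% of lost ones in Sertoli cells, and the CpG ratio was 0.244 (gained) and 0.220 (lost). With lists of equal number, 32.6% and 17.7% of lost distal regions were in the XX progenitor and pregranulosa lists, and with peaks within 1 kb joined 30.5% in the former. In the central 500 bp, the NR5A1 motif was in 12.3% of gained and 3.97% of lost, and the SOX motif in 2.33% and 2.03%.

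The largest shifts came with regions over 1001 bp only, the alternative added after the data were seen. Lost promoter regions numbered 390, and distal regions 2411 (lost), 4317 (kept) and 8566 (gained), so that most distal regions of XY progenitor cells were kept, the opposite of the order over all regions. Of protein-coding promoters 256 were lost, 68 Sertoli-specific genes were gained, and the median width difference was 370 bp. Of gained distal regions 36.8% and 51.7% were in the XX progenitor and pregranulosa lists, and of lost ones 65.9% and 34.3%. H3K27me3 overlapped 43.9% of gained promoters in XY progenitor cells and 73.0% of lost ones in Sertoli cells. The CpG ratio was 0.252 (gained) and 0.255 (lost), the opposite order to that over all regions. The NR5A1 motif was in 18.5% of gained, and the SOX motif in 3.98% of gained and 3.32% of lost distal regions.

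For the 109 named genes, the difference in H3K4me3 bases within the window (Sertoli minus XY progenitor) changed sign in 3 cases: to 97 bp at Des and 358 bp at Wnt4 with windows of 1 kb, and to -210 bp at Prdm1 with peaks within 1 kb joined. The difference in depth between the lists limits any statement on weak regions.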
